A study of Homo sapiens with 24 samples.

Results

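The 10 genes described here encode enzymes of de novo purine synthesis, PPAT, GART, PFAS, PAICS, ADSL, ATIC, IMPDH1, IMPDH2, ADSS and GMPS, chosen by symbol from a table of read counts for 23354 genes. The RNA came from MV4-11 and KG-1a, established human lines of acute myeloid leukemia (AML) with a wild-type genotype by the labels. Both were kept in Iscove’s Modified Dulbecco’s Medium, called IMEM in the paper, with 10% fetal bovine serum. The cells were untreated, or received 8CA or 8AA at a dose of 1 μM, and were taken after 8 h or 24 h. Each drug is an adenosine analog, substituted at the same place of the base with chlorine in 8CA (8-chloro-adenosine) and with an amino group in 8AA (8-amino-adenosine). Each of the 12 groups had 2 libraries, A and B, 24 libraries in all, and the hours of the untreated libraries come from the sample titles. Each group comes from a single line, and nothing in the labels says whether libraries A and B came from separate cultures, so the p-values measure the spread between these libraries, which may be technical.

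The pathway builds the purine ring step by step on phosphoribosyl pyrophosphate (PRPP) until inosine monophosphate (IMP) is formed, and IMP is then turned into AMP by one branch and GMP by the other. Dividing cells, leukemia cells among them, depend on it for DNA, RNA, ATP and GTP, and the transcription factors MYC and ATF4 are known to act on several of its genes. Adenosine analogs such as 8CA and 8AA enter the same nucleotide pool, since adenosine kinase phosphorylates them to nucleotides.

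The libraries held 18633963 to 24520078 counts, with a median of 21402883, and the 10 genes took 0.155% to 0.273% of them. Every member was well counted, with 646 reads for the lowest value (IMPDH1) and 17554 for the highest (IMPDH2), and all 10 passed the filter on low counts in every fit. Libraries A and B of KG-1a with 8AA at 24 h stood apart from each other, with a chi-square per degree of freedom of 12.3 between their counts against 1.43 to 5.20 in the other 11 pairs, so the main results that rest on them are also given without each. PAICS, IMPDH1, PPAT and GMPS have pseudogene copies that could share reads with them, so their counts are uncertain to that extent. The myeloid markers CD33, FLT3 and MPO reached at most 2.36 CPM (counts scaled to library size) in KG-1a, where MEIS1 had 0 counts, and this line held 343 to 687 CPM of the progenitor marker CD34 and 22.5 to 85.5 CPM of the T cell gene CD3E. MV4-11 held 406 to 609 CPM of FLT3 and at most 0.165 CPM of CD34. PTPRC, listed with the myeloid markers, went the other way, with 695 to 874 CPM in KG-1a and 77.1 to 149 in MV4-11. The part of this difference in the results was not tested, and in such bulk RNA fewer cells of a type and less RNA per cell cannot be told apart.

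In untreated cells the 10 genes spanned a wide range of levels. Per length of transcript (RPKM, reads per kilobase scaled to library size), IMPDH2, the main dehydrogenase of the GMP branch, led in MV4-11 at 8 h with 388 ± 1.20 (SD, n = 2), followed by PAICS at 189 ± 0.558 and GMPS at 117 ± 3.90. ADSL (95.6 ± 5.03) and ATIC (95.6 ± 0.354) overlapped, and GART (67.1 ± 0.831), IMPDH1 (55.4 ± 0.0336), ADSS (39.1 ± 1.14), PFAS (35.1 ± 0.268) and PPAT (21.3 ± 0.232) followed with no overlap between neighbours. In KG-1a the order was PAICS (209 ± 3.89), IMPDH2 (193 ± 0.0663), ATIC (97.6 ± 4.02), ADSL (95.7 ± 5.38), GMPS (73.6 ± 0.976), GART (57.8 ± 0.363), ADSS (37.2 ± 1.65), PPAT (29.5 ± 1.16), IMPDH1 (21.1 ± 1.47) and PFAS (17.4 ± 0.859), where again ATIC and ADSL were the only neighbours that overlapped at 8 h. PPAT, the enzyme of the first committed step, was thus the lowest member in MV4-11 and PFAS the lowest in KG-1a.

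The untreated lines differed in 7 of 10 members at each time by the quasi-likelihood test of edgeR (Benjamini-Hochberg adjusted over all genes), where 82.2% of all 14055 genes tested were called at 8 h and 82.0% at 24 h, so the members' share lies near that of all genes. IMPDH1 was higher in MV4-11 by a log2 difference of 1.39 ± 0.062 (SE) at 8 h and 1.41 ± 0.062 at 24 h, IMPDH2 by 1.01 ± 0.057 and 1.12 ± 0.057, and PFAS by 1.01 ± 0.050 and 1.03 ± 0.050. GMPS was higher by 0.67 ± 0.049 and 0.68 ± 0.049, and GART by 0.22 ± 0.043 and 0.21 ± 0.043. PPAT went the other way, at −0.47 ± 0.050 and −0.28 ± 0.050. PAICS was called lower at 8 h (−0.14 ± 0.037), a call lost under upper-quartile scaling and without a filter, and ADSS higher at 24 h (0.19 ± 0.047), a call lost when only library size was used. Other calls were gained under alternatives. ADSS at 8 h was called with DESeq2 size factors, upper-quartile scaling, no filter or a filter of 10 counts in every library. PAICS at 24 h and ATIC at both times were called with library size only. Between 8 h and 24 h in untreated cells, edgeR called 0 members in either line, with 5.54% of all genes called in MV4-11 and 4.45% in KG-1a. DESeq2 also called 0, and at an unadjusted p under 0.05 stood PFAS and IMPDH1 in MV4-11 and PPAT, ADSL and ADSS in KG-1a. The member median of this untreated change was −0.02 in MV4-11 and −0.11 in KG-1a, beside 0.001 and −0.001 for all genes. In KG-1a 9 of the 10 members had a value below 0, and in MV4-11 7.

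**Figure D1:**
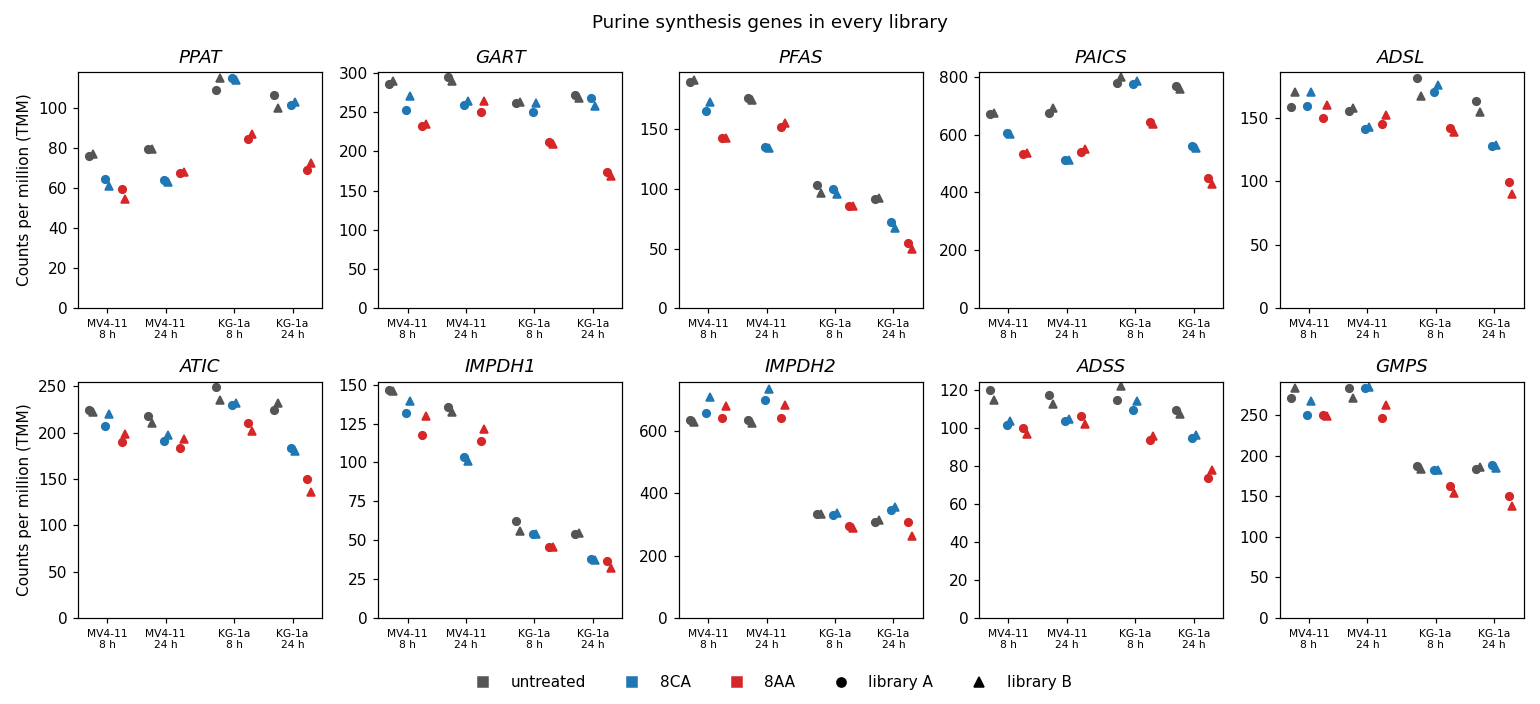
CPM (y axis, from 0, scaled by TMM) of each member in all 24 libraries, by cell line and hours (x axis), with circles for library A, triangles for library B, and colours for untreated, 8CA and 8AA. In KG-1a at 24 h the 8AA libraries sit below the 8CA and untreated libraries for every member but IMPDH2, whose 8AA library A lies within the range of the untreated pair.

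At least 6 of the 10 genes were called lower in 6 of the 8 comparisons of a drug with untreated cells, and IMPDH2 was the only member called higher in any of them. The question was how each drug changed the transcripts against untreated cells of the same line and time. Counts were scaled between libraries, so lower and higher are relative to all genes, and the counts do not give RNA per cell. In MV4-11 at 8 h, 8CA lowered 4 members (PPAT, PFAS, PAICS and ADSS), with 5.77% of all 12800 genes tested called lower and 4.58% higher. The median log2 fold change of the members was −0.12, and that of all genes 0.01. 8AA lowered 8 members in MV4-11 at 8 h, all but ADSL and IMPDH2, against 15.6% of all genes called lower and 13.6% higher, with a median of −0.25. In KG-1a at 8 h, edgeR called 0 members with 8CA, 0 also at an unadjusted p under 0.05 and 0 by DESeq2, while 0.181% of all 12711 genes tested were called lower and 0.700% higher. 8AA lowered all 10 members in KG-1a at 8 h, with a median of −0.31, against 18.0% of all genes called lower and 16.7% higher.

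At 24 h, 8CA lowered 8 members in MV4-11 and raised IMPDH2, leaving GMPS uncalled, where 22.7% of all genes were called lower and 21.2% higher, with a member median of −0.15. 8AA lowered 7 members in MV4-11 (median −0.19), all but ADSL, IMPDH2 and GMPS, against 15.3% of all genes lower and 13.9% higher. In KG-1a 8CA lowered 6 members and raised IMPDH2 (median −0.25), leaving PPAT, GART and GMPS uncalled, against 24.0% of all genes lower and 23.4% higher. 8AA lowered 9 members in KG-1a, all but IMPDH2, with the lowest member median of the 8 comparisons, −0.66, beside 0.01 for all genes, of which 26.6% were called lower and 25.4% higher. Without library A of that group these 9 ranged from −0.89 (PFAS) to −0.42 (GMPS). Without library B they ranged from −0.76 (PAICS) to −0.30 (GMPS). Each such fit leaves out the spread of this discordant pair, so a call kept there tells little. Both drugs of a line and time share the same untreated libraries.

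Some of these counts rest on single libraries. In MV4-11 the 4 calls with 8CA at 8 h fell to 1 (PPAT) without untreated library A and to 2 without 8CA library A. The 9 calls with 8CA at 24 h fell to 5 without untreated library A or 8CA library A, and the 7 calls with 8AA at 24 h fell to 4 without untreated library A. With 8AA, 7 of the 8 calls in MV4-11 at 8 h and 8 of the 10 in KG-1a at 8 h were kept with any library left out.

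**Figure D2:**
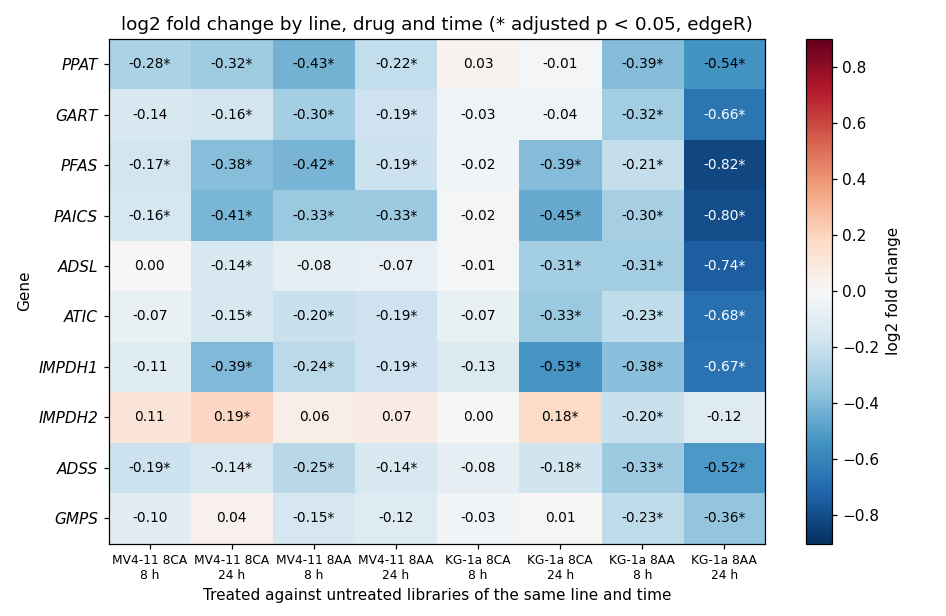
log2 fold change of each member (rows) against untreated libraries of the same line and time in the 8 comparisons (columns), printed in each cell, with an asterisk where the adjusted p of edgeR's test was under 0.05. The lowest values are in KG-1a with 8AA at 24 h, down to −0.82 for PFAS, and the values called above 0 are those of IMPDH2 with 8CA at 24 h (0.19 and 0.18).

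PPAT, the amidotransferase that commits PRPP to the pathway, and PAICS, which carries out both the carboxylation of the imidazole ring and the step after it, are neighbours on chromosome 4 and are transcribed in opposite directions. In the coordinates of the counts table, which are not those of GRCh38, PPAT lies at chr4:57259529-57301802 on the minus strand and PAICS at chr4:57301915-57327534 on the plus strand. RefSeq promoter windows of build GRCh38.p14, from 250 bases before a start to 50 after it, were matched to 8 of the 10 members, in 13 windows, with ADSS found under its newer symbol ADSS2. ADSL and IMPDH2 were not matched. The letters CACGTG, the E-box bound by MYC and related factors, which read the same on both strands, stood in 3 of the 13 windows, those of ATIC, PPAT and one of PAICS, beside 7.26% of all 35116 windows. Of the other motifs searched on both strands, TGATGNAAN (the ATF4 element, in 3.61% of all windows) and GGAAGTG (ETS factors, in 11.2%) were not found in the members' windows, and the NRF1 motif (5.78%) stood in another window of PAICS. The windows of PPAT and ATIC are shown because they hold the E-box of the members described next, with its letters in capitals.
PPAT (GRCh38.p14, chr4:56435566-56435865, minus strand): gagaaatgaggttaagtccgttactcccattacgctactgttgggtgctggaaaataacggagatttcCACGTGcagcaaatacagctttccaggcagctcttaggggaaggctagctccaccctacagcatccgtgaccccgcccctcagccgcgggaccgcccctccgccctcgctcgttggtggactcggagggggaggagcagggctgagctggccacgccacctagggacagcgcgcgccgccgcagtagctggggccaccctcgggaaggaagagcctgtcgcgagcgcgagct
ATIC (GRCh38.p14, chr2:215311809-215312108, plus strand): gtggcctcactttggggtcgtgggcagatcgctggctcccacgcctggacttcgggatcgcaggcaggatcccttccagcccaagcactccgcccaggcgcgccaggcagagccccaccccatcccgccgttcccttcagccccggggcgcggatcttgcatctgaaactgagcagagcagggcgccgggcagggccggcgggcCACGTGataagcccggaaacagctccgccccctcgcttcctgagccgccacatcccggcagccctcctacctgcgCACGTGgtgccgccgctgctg
The PPAT window shares 236 bases with the PAICS window at chr4:56435502-56435801 on the plus strand, so both hold the same E-box, at chr4:56435792-56435797. It begins at position −182 from the start of PPAT and at position 41 of PAICS. The E-boxes of ATIC begin at positions −46 and 30. A match describes the letters in these windows only.

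PPAT and PAICS were both called lower with either drug in MV4-11 and with 8AA in KG-1a, at each time. With 8CA in KG-1a neither was called at 8 h, and at 24 h PAICS was called lower and PPAT was not. The part of the shared sequence in these changes was not tested. PPAT in MV4-11 at 8 h stood at 76.0 and 77.04 CPM untreated, 64.5 and 61.2 under 8CA and 59.5 and 54.5 under 8AA. At 24 h, PPAT in MV4-11 stood at 79.4 and 79.7 CPM untreated, 64.3 and 63.2 under 8CA and 67.9 and 68.4 under 8AA. Every treated library of MV4-11 lay below every untreated one, with log2 fold changes of −0.28 ± 0.053 and −0.32 ± 0.052 for 8CA and −0.43 ± 0.053 and −0.22 ± 0.052 with 8AA at 8 h and 24 h, all called with any library left out. In KG-1a, PPAT at 8 h measured 109 and 115 CPM untreated, 115 and 114 under 8CA and 84.5 and 87.01 under 8AA. For PPAT in KG-1a at 24 h the levels were 106 and 100.0 CPM untreated, 102 and 103 under 8CA and 69.4 and 72.6 under 8AA. The 8CA libraries of KG-1a lay among or beside the untreated ones and the 8AA libraries far below them. The fold change with 8CA at 24 h was −0.01 ± 0.051 with a 95% confidence interval of −0.12 to 0.10, and with 8AA it was −0.39 ± 0.051 at 8 h and −0.54 ± 0.052 at 24 h (−0.51 without 8AA library A and −0.58 without library B).

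PAICS was the most abundant member per length in untreated KG-1a and passed the test in 7 of the 8 comparisons. PAICS in MV4-11 at 8 h stood at 672 and 674 CPM untreated, 607 and 601 under 8CA and 532 and 536 under 8AA. At 24 h, PAICS in MV4-11 stood at 673 and 692 CPM untreated, 514 and 511 under 8CA and 539 and 549 under 8AA. Treated and untreated libraries did not overlap, and the fold changes were −0.16 ± 0.037 and −0.41 ± 0.037 for 8CA and −0.33 ± 0.038 and −0.33 ± 0.037 with 8AA. The call with 8CA at 8 h was lost without untreated library A or 8CA library B (adjusted p up to 0.0646). In KG-1a, PAICS at 8 h measured 779.9 and 798 CPM untreated, 776 and 785 under 8CA and 644 and 637 under 8AA. For PAICS in KG-1a at 24 h the levels were 767 and 759 CPM untreated, 559 and 555 under 8CA and 449.9 and 428 under 8AA. At 8 h the 8CA libraries overlapped the untreated ones (−0.02 ± 0.040) and at 24 h they lay below them (−0.45 ± 0.040, adjusted p = 3.18e-07). With 8AA the change was −0.30 ± 0.040 at 8 h and −0.80 ± 0.040 at 24 h, −0.84 without 8AA library A and −0.76 without library B. The log2 ratio of PAICS to PPAT counts within a library, which scaling between libraries cannot change, was 2.85 to 2.92 in untreated KG-1a at 24 h, 2.42 to 2.46 with 8CA and 2.56 to 2.70 with 8AA. In MV4-11 at 24 h it was 3.08 to 3.12 untreated, 2.999 to 3.015 with 8CA and 2.99 to 3.01 with 8AA. The ratio was thus lower in every treated library at 24 h than in the untreated ones of its line. At 8 h it was 2.79 to 2.84 untreated, 2.75 to 2.78 with 8CA and 2.87 to 2.93 with 8AA in KG-1a, and 3.13 to 3.15, 3.23 to 3.30 and 3.16 to 3.30 in MV4-11, so that the 8AA libraries then lay above the untreated ones.

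GART, a single protein with 3 activities of the early pathway, and PFAS, the amidotransferase between them, follow PPAT. GART in MV4-11 at 24 h stood at 295 and 289.7 CPM untreated, 259 and 264 under 8CA and 250.1 and 264 under 8AA. In KG-1a, GART at 24 h measured 272 and 268 CPM untreated, 268 and 258 under 8CA and 174 and 169 under 8AA. The 8AA libraries of KG-1a were the lowest of all, while 8CA library A of KG-1a (268.4) lay within the untreated pair. GART changed by −0.66 ± 0.043 with 8AA in KG-1a (−0.68 without 8AA library A, −0.64 without library B), its largest change, and by −0.04 ± 0.043 with 8CA (95% confidence interval −0.13 to 0.05). In MV4-11 at 24 h the changes were −0.16 ± 0.045 and −0.19 ± 0.045, and the first was not called without untreated library A or 8CA library A (adjusted p up to 0.0627). At 8 h 8AA changed GART by −0.30 ± 0.045 in MV4-11 and −0.32 ± 0.043 in KG-1a, while 8CA was called in neither line (−0.14 ± 0.045, adjusted p = 0.0669, and −0.03 ± 0.043).

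PFAS had the lowest fold change of any member in any comparison, in KG-1a with 8AA at 24 h. PFAS in MV4-11 at 8 h stood at 189 and 191 CPM untreated, 165 and 173 under 8CA and 142 and 142 under 8AA. At 24 h, PFAS in MV4-11 stood at 176 and 174 CPM untreated, 135 and 134 under 8CA and 152 and 155 under 8AA. At 8 h the 8AA libraries were the lower ones, and at 24 h the 8CA libraries. The fold changes were −0.17 ± 0.041 for 8CA and −0.42 ± 0.042 with 8AA at 8 h, and −0.38 ± 0.042 and −0.19 ± 0.042 at 24 h. The 8CA call at 8 h was lost without untreated library A, untreated library B or 8CA library A (adjusted p up to 0.0918). In KG-1a, PFAS at 8 h measured 103 and 96.1 CPM untreated, 100.2 and 95.7 under 8CA and 86.0 and 85.98 under 8AA. For PFAS in KG-1a at 24 h the levels were 91.1 and 92.6 CPM untreated, 72.5 and 67.4 under 8CA and 54.6 and 49.5 under 8AA. The groups of KG-1a at 24 h did not overlap, in the order untreated, 8CA, 8AA, with −0.39 ± 0.060 for 8CA and −0.82 ± 0.061 for 8AA, which was −0.89 without 8AA library A and −0.75 without library B. At 8 h the change with 8AA was −0.21 ± 0.058, a call lost without untreated library A, 8AA library A or 8AA library B (adjusted p up to 0.115).

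ATIC, which closes the second ring to give IMP, and ADSL, a lyase that works both before ATIC and on the AMP branch, fell more in KG-1a than in MV4-11 with 8AA at 24 h (the test of that difference is given with the comparison of the lines). ATIC in MV4-11 at 24 h stood at 218 and 211 CPM untreated, 191 and 197 under 8CA and 183 and 194 under 8AA. In KG-1a, ATIC at 24 h measured 225 and 232 CPM untreated, 183 and 179.7 under 8CA and 149.5 and 136 under 8AA. Treated libraries lay below untreated ones in both lines, and 8AA below 8CA in KG-1a. The change in KG-1a was −0.33 ± 0.052 for 8CA and −0.68 ± 0.052 with 8AA (−0.75 without 8AA library A, −0.61 without library B), and in MV4-11 −0.15 ± 0.047 and −0.19 ± 0.047. Of the MV4-11 calls, that with 8CA was lost without untreated library A or 8CA library A (adjusted p up to 0.139) and under library size only or upper-quartile scaling, and that with 8AA without untreated library A or 8AA library A (adjusted p up to 0.0588). ATIC at 8 h was called with 8AA (−0.20 ± 0.047 in MV4-11, −0.23 ± 0.051 in KG-1a) and not with 8CA (−0.07 ± 0.047 and −0.07 ± 0.051).

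ADSL in MV4-11 at 24 h stood at 155 and 157 CPM untreated, 141 and 143 under 8CA and 145 and 152 under 8AA. In KG-1a, ADSL at 24 h measured 163 and 155 CPM untreated, 128 and 128 under 8CA and 99.6 and 90.1 under 8AA. The KG-1a groups were separated, untreated above 8CA above 8AA, with −0.31 ± 0.056 for 8CA and −0.74 ± 0.057 for 8AA (−0.82 without 8AA library A, −0.67 without library B). In MV4-11 the values were −0.14 ± 0.052 with 8CA, a call lost with any of the 4 libraries left out (adjusted p up to 0.148) and under library size only, upper-quartile scaling, no filter, a filter of 10 counts in every library, DESeq2's Wald test or the fit of all 24 libraries, and −0.07 ± 0.052 with 8AA, which was not called. At 8 h ADSL was called in KG-1a with 8AA (−0.31 ± 0.055) and in none of the other comparisons, with 0.00 ± 0.052 and −0.08 ± 0.052 in MV4-11 and −0.01 ± 0.055 with 8CA in KG-1a.

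IMPDH1 and IMPDH2 are isoenzymes of the rate-limiting step of the GMP branch, the oxidation of IMP, and they moved apart. IMPDH1 in MV4-11 at 24 h stood at 136 and 133 CPM untreated, 104 and 101 under 8CA and 114 and 122 under 8AA. In KG-1a, IMPDH1 at 24 h measured 53.8 and 54.7 CPM untreated, 38.1 and 37.0 under 8CA and 36.5 and 31.8 under 8AA. All treated libraries at 24 h lay below the untreated ones in both lines. The changes were −0.39 ± 0.054 for 8CA and −0.19 ± 0.054 with 8AA in MV4-11, and −0.53 ± 0.070 and −0.67 ± 0.070 in KG-1a. The 8AA call in MV4-11 was lost without untreated library A or 8AA library A (adjusted p up to 0.11), and the 8AA change in KG-1a was −0.77 without 8AA library A and −0.58 without library B. At 8 h IMPDH1 was lower with 8AA (−0.24 ± 0.053 in MV4-11, −0.38 ± 0.067 in KG-1a), and with 8CA not called (−0.11 ± 0.053 and −0.13 ± 0.067).

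IMPDH2 in MV4-11 at 24 h stood at 636 and 626 CPM untreated, 700.2 and 736 under 8CA and 643 and 684 under 8AA. In KG-1a, IMPDH2 at 24 h measured 307 and 315 CPM untreated, 347 and 356 under 8CA and 309.5 and 263 under 8AA. Both 8CA pairs lay above their untreated pairs, and the 8AA libraries of KG-1a lay far apart, library A within the untreated range and library B below it. With 8CA at 24 h IMPDH2 rose by 0.19 ± 0.048 in MV4-11 and 0.18 ± 0.058 in KG-1a. The MV4-11 call was lost without 8CA library B (adjusted p up to 0.0516), and the KG-1a call with any of the 4 libraries left out (adjusted p up to 0.161). With 8AA at 24 h IMPDH2 was not called in either line, at 0.07 ± 0.048 (95% confidence interval −0.03 to 0.18) in MV4-11 and −0.12 ± 0.058 (−0.24 to 0.0049) in KG-1a, where it was called with no filter. The KG-1a value rests on its discordant pair, since it was −0.24 (adjusted p = 9.07e-06) without 8AA library A and −0.01 (adjusted p = 0.86) without library B, the remaining library then being assumed to vary like the other groups. At 8 h the values were 0.11 ± 0.048 and 0.06 ± 0.048 with 8CA and 8AA in MV4-11, neither called, and in KG-1a 0.00 ± 0.058 for 8CA and −0.20 ± 0.058 with 8AA, the latter called but lost with any of the 4 libraries left out (adjusted p up to 0.095).

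The log2 ratio of IMPDH2 to IMPDH1 counts within a library was higher in every treated library than in the untreated ones of its line and time. At 24 h it was 2.23 to 2.24 in untreated MV4-11, 2.76 to 2.87 with 8CA and 2.49 to 2.50 with 8AA. For KG-1a the same ratio was 2.51 to 2.53 untreated, 3.19 to 3.26 with 8CA and 3.05 to 3.09 with 8AA. The 8AA libraries of KG-1a, far apart in the level of IMPDH2, agreed closely in this ratio. At 8 h the ratio was 2.11 to 2.12 untreated, 2.32 to 2.35 with 8CA and 2.39 to 2.45 with 8AA in MV4-11, and 2.43 to 2.57, 2.61 to 2.64 and 2.65 to 2.70 in KG-1a. The ratio shows unequal change and not that either gene was constant.

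**Figure D3:**
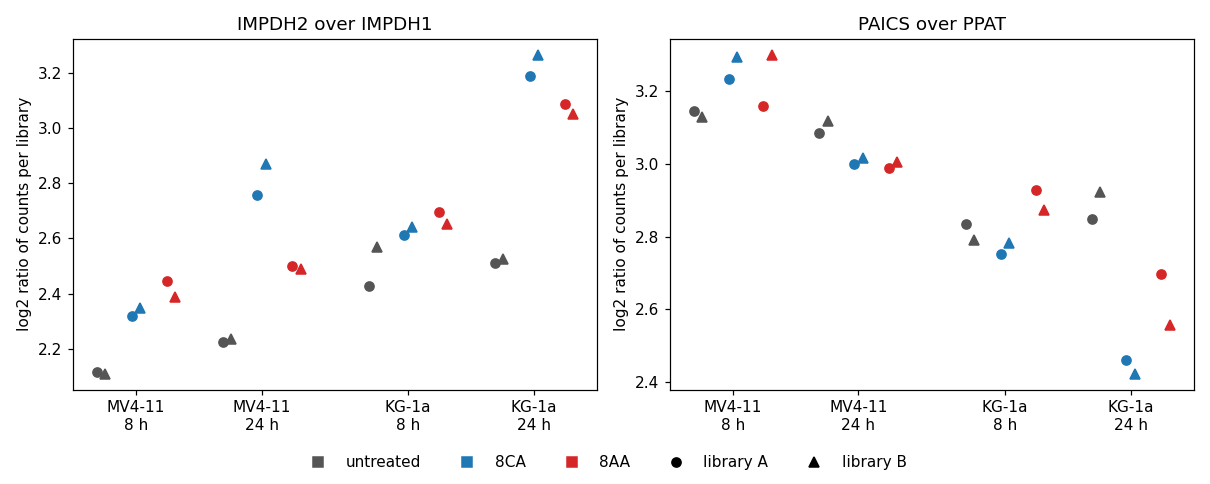
log2 ratio of the counts of IMPDH2 to IMPDH1 (left) and of PAICS to PPAT (right) in each library (y axis) by cell line and hours (x axis), with circles for library A and triangles for library B. The IMPDH2 to IMPDH1 ratio of treated libraries lies above that of untreated ones at 24 h in both lines, and the PAICS to PPAT ratio of KG-1a with 8CA at 24 h (2.42 to 2.46) lies below the untreated 2.85 to 2.92.

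GMPS, the amidotransferase that completes GMP, was called lower with 8AA in 3 of its 4 comparisons and with 8CA in none. GMPS in MV4-11 at 24 h stood at 283 and 270.5 CPM untreated, 284 and 284 under 8CA and 247 and 263 under 8AA. In KG-1a, GMPS at 24 h measured 184 and 186 CPM untreated, 188 and 185 under 8CA and 151 and 138 under 8AA. The 8AA libraries lay below both the untreated and the 8CA libraries in each line. GMPS changed with 8AA by −0.36 ± 0.049 in KG-1a at 24 h (−0.42 without 8AA library A, −0.30 without library B), by −0.23 ± 0.049 in KG-1a at 8 h and by −0.15 ± 0.048 in MV4-11 at 8 h, the last a call lost without untreated library B, 8AA library A or 8AA library B (adjusted p up to 0.122) and under library size only, upper-quartile scaling or the fit of all 24 libraries. With 8AA in MV4-11 at 24 h it was −0.12 ± 0.048 (adjusted p = 0.071). The 8CA values at 24 h were 0.04 ± 0.047 in MV4-11 (95% confidence interval −0.06 to 0.14) and 0.01 ± 0.049 in KG-1a (−0.09 to 0.12).

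ADSS, which opens the AMP branch by adding aspartate to IMP, fell in 7 of the 8 comparisons. ADSS in MV4-11 at 24 h stood at 118 and 112 CPM untreated, 104 and 105 under 8CA and 106 and 102 under 8AA. In KG-1a, ADSS at 24 h measured 109 and 107 CPM untreated, 94.9 and 96.1 under 8CA and 73.6 and 77.9 under 8AA. The untreated pair was the highest in each line, and 8AA and 8CA overlapped in MV4-11 but not in KG-1a. With 8AA at 24 h ADSS changed by −0.52 ± 0.051 in KG-1a (−0.48 without 8AA library A, −0.56 without library B), and with 8CA by −0.18 ± 0.051, a call lost without 8CA library A (adjusted p up to 0.0569). In MV4-11 at 24 h it was −0.14 ± 0.047 with 8CA, lost without untreated library A, 8CA library A or 8CA library B (adjusted p up to 0.183) and under library size only, upper-quartile scaling, no filter or DESeq2's Wald test. With 8AA it was −0.14 ± 0.047, lost without untreated library A or 8AA library B (adjusted p up to 0.187) and under library size only, upper-quartile scaling, no filter, DESeq2's Wald test or the fit of all 24 libraries. At 8 h it was −0.19 ± 0.047 with 8CA, lost without untreated library A, 8CA library A or 8CA library B (adjusted p up to 0.124), and −0.25 ± 0.047 with 8AA in MV4-11, and −0.08 ± 0.050 (not called) and −0.33 ± 0.050 in KG-1a.

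The analogs, which differ by the group on the base, were compared directly at the same dose and time, in 4 comparisons. In KG-1a at 24 h, 9 members were lower with 8AA than with 8CA, where 21.7% of all genes were called lower. GART differed by −0.62 ± 0.043 (−0.64 without 8AA library A, −0.60 without library B) and PPAT by −0.53 ± 0.052 (−0.50 and −0.56), and these had the lowest values. IMPDH1 was not called, at −0.14 ± 0.072 with a 95% confidence interval of −0.29 to 0.02, but was called at −0.24 without 8AA library A and stood at −0.04 without library B. The other 7 members ranged from −0.43 (ADSL) to −0.29 (IMPDH2). Without 8AA library A their range was −0.51 (ADSL) to −0.29 (ADSS), and without library B −0.38 (ADSS) to −0.18 (IMPDH2).

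At 8 h in KG-1a all 10 members were lower with 8AA than with 8CA, against 15.8% of all genes, from −0.42 ± 0.051 for PPAT to −0.16 ± 0.051 for ATIC. That count fell to 6 without 8CA library A, 8CA library B or 8AA library A and to 5 without 8AA library B, and PPAT, GART, PAICS, ADSL and ADSS were called in every such fit. In MV4-11 at 8 h, 3 members were lower with 8AA, against 3.70% of all genes. They were PFAS at −0.25 ± 0.042, called in every fit, PAICS at −0.18 ± 0.038, lost without 8CA library A, 8AA library A or 8AA library B (adjusted p up to 0.0702), and GART at −0.17 ± 0.045, lost without 8CA library B, 8AA library A or 8AA library B (adjusted p up to 0.263) and under upper-quartile scaling.

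At 24 h in MV4-11 the analogs differed in both directions. PFAS (0.19 ± 0.042) and IMPDH1 (0.20 ± 0.054) were higher with 8AA, against 11.7% of all genes called higher, and GMPS (−0.16 ± 0.047) was lower, against 9.48% called lower. The PFAS call held in every fit. That of IMPDH1 was lost without 8CA library A, 8CA library B or 8AA library B (adjusted p up to 0.152) and that of GMPS without 8CA library A, 8CA library B or 8AA library A (adjusted p up to 0.159). The order of the drugs for PFAS thus changed between 8 h and 24 h in MV4-11, where 8AA gave the lower level first and 8CA later.

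The change of each drug's effect from 8 h to 24 h was tested as an interaction. In KG-1a the 8CA change was lower at 24 h for 5 members, PFAS, PAICS, ADSL, ATIC and IMPDH1, against 12.7% of all genes, and PAICS differed most, by −0.44 ± 0.056 (adjusted p = 6.11e-05). That count fell to 3 without untreated 8 h library B or 8CA 8 h library B. The calls that did not hold throughout were ADSL, lost without KG-1a untreated 8 h library B, KG-1a 8CA 8 h library B or KG-1a untreated 24 h library A (adjusted p up to 0.0574), and ATIC, lost without KG-1a untreated 8 h library B, KG-1a 8CA 8 h library B, KG-1a untreated 24 h library B or KG-1a 8CA 24 h library B (adjusted p up to 0.0722). With 8AA in KG-1a, GART, PFAS, PAICS, ADSL and ATIC were lower at 24 h than at 8 h, against 10.7% of all genes. PFAS led at −0.60 ± 0.084 (−0.68 without 8AA 24 h library A and −0.54 without library B). Without library A and without library B the others were −0.36 and −0.32 for GART, −0.54 and −0.46 for PAICS, −0.51 and −0.36 for ADSL and −0.52 and −0.38 for ATIC. Further members were called with 1 of these libraries left out, IMPDH1 (−0.40) and GMPS (−0.20) without library A, and ADSS (−0.23) and, in the other direction, IMPDH2 (0.19) without library B. IMPDH1, at −0.29 ± 0.097 with an adjusted p of 0.0507, was also called with no filter and in the fit of all 24 libraries.

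In MV4-11 the 8CA change was lower at 24 h for PFAS, PAICS and IMPDH1, against 9.83% of all genes, with −0.26 ± 0.053 for PAICS, called in every fit. PFAS (−0.21 ± 0.059) was lost without MV4-11 untreated 8 h library A, MV4-11 untreated 8 h library B, MV4-11 8CA 8 h library B, MV4-11 untreated 24 h library A, MV4-11 untreated 24 h library B, MV4-11 8CA 24 h library A or MV4-11 8CA 24 h library B (adjusted p up to 0.104) and under no filter and IMPDH1 (−0.29 ± 0.076) without MV4-11 untreated 8 h library B, MV4-11 8CA 8 h library B, MV4-11 untreated 24 h library A or MV4-11 8CA 24 h library B (adjusted p up to 0.0782). With 8AA in MV4-11, PFAS was higher at 24 h than at 8 h by 0.23 ± 0.059, against 2.51% of all genes called higher, a call lost with any of the 8 libraries left out (adjusted p up to 0.151) and under no filter or the fit of all 24 libraries.

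The lines were compared in a fit of all 24 libraries. With 8AA at 24 h the log2 change was higher, that is less negative, in MV4-11 than in KG-1a for 9 members, all but IMPDH2, against 13.8% of all genes called higher. ADSL differed by 0.69 ± 0.080, PFAS by 0.65 ± 0.072 and PAICS by 0.49 ± 0.052. Without KG-1a 8AA library A these were 0.77, 0.72 and 0.53, and without library B 0.54, 0.50 and 0.38. The same values were 0.30 and 0.29 for PPAT, 0.51 and 0.40 for GART, 0.58 and 0.37 for ATIC, 0.60 and 0.33 for IMPDH1 and 0.35 and 0.36 for ADSS. IMPDH2 was not called (0.21 ± 0.080), but was at 0.33 without KG-1a 8AA library A. GMPS (0.26 ± 0.069) was lost without MV4-11 untreated library B, MV4-11 8AA library B or KG-1a 8AA library B (adjusted p up to 0.213) and under no filter. Scaling by library size moved the median of all genes in KG-1a with 8AA at 24 h to 0.11 and that of the members to −0.57, so the members stood below all genes under that scaling too.

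With 8CA, PPAT was the one member called between the lines, lower in MV4-11 with a difference of −0.30 ± 0.070 at 8 h, against 0.726% of all genes, and −0.29 ± 0.070 at 24 h, against 5.44%. The 8 h call was lost without MV4-11 untreated library A, MV4-11 untreated library B, MV4-11 8CA library B, KG-1a untreated library A, KG-1a 8CA library A or KG-1a 8CA library B (adjusted p up to 0.187), and the 24 h call without KG-1a untreated library B (adjusted p up to 0.0627). With 8AA at 8 h, ADSL (0.27 ± 0.079) and IMPDH2 (0.30 ± 0.080) were higher in MV4-11, against 7.49% of all genes. ADSL was lost without MV4-11 untreated library A, MV4-11 8AA library B, KG-1a untreated library A, KG-1a 8AA library A or KG-1a 8AA library B (adjusted p up to 0.153) and under no filter, a filter of 10 counts in every library or DESeq2's Wald test, and IMPDH2 without MV4-11 8AA library B or KG-1a 8AA library B (adjusted p up to 0.08).

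**Figure D4:**
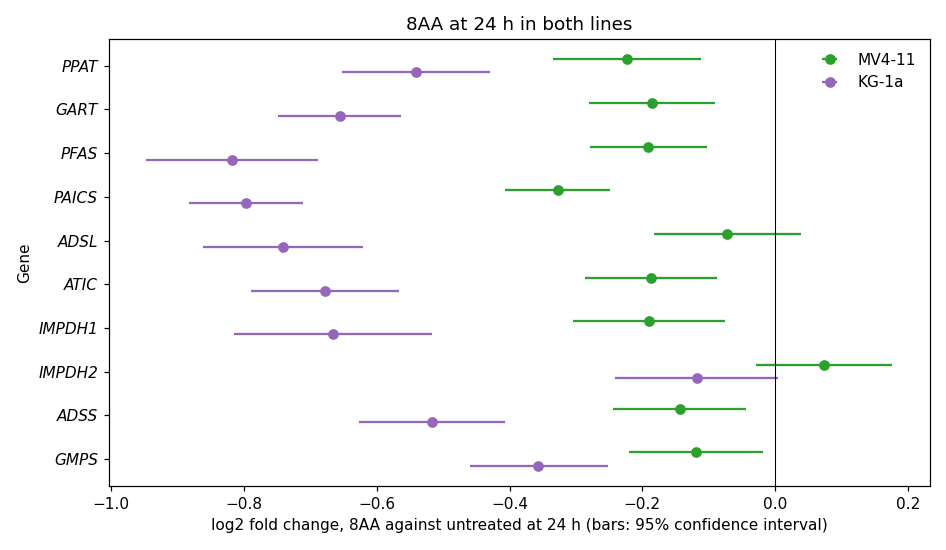
log2 fold change with 8AA at 24 h (x axis) of each member (y axis) in MV4-11 (green) and KG-1a (purple), with bars for the 95% confidence interval from edgeR. The KG-1a values lie below the MV4-11 values for every member, from −0.82 (PFAS) to −0.12 (IMPDH2) in KG-1a and from −0.33 (PAICS) to 0.07 (IMPDH2) in MV4-11.

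Genes that feed or adjoin the pathway were read from 6 lists with 50 genes in all. Of these, 44 were tested in both lines, and 14 were lower in all 4 comparisons at 24 h, as were 7.64% of all 11485 genes tested in both. In the order 8CA and 8AA in MV4-11, then 8CA and 8AA in KG-1a, all genes were called lower in 22.7%, 15.3%, 24.0% and 26.6% and higher in 21.2%, 13.9%, 23.4% and 25.4%, and the lists below are to be read against these shares. The last value of each set, 8AA in KG-1a at 24 h, rests on the libraries A and B that stood apart from each other. For the genes of all lists, values without each of these libraries are not given, so they are less certain than their standard errors say. PRPS1, which makes PRPP, changed by −0.42 and −0.26 with 8CA and 8AA in MV4-11 and by −0.42 and −0.45 in KG-1a. In the list of PRPP supply, with 4 genes tested, 2 were lower with either drug in MV4-11, 2 with 8CA and 3 with 8AA in KG-1a, and 1 was higher, with 8CA in MV4-11. PRPS2 gave −0.52, −0.43, −0.17 (not called) and −0.47 in the same order. Of the regulatory subunits, PRPSAP1 gave 0.34, 0.12, −0.29 and 0.05, called with 8CA only, in opposite directions in the lines, and PRPSAP2 0.05, 0.06, −0.18 and −0.22, called in the last.

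Several genes from a list of purine salvage, which returns bases and nucleosides to nucleotides, and purine breakdown fell at 24 h. Of 8 tested, 5 and 4 were lower with 8CA and 8AA in MV4-11 and 6 and 5 in KG-1a, while 2 and 1 were higher in MV4-11 and 1 and 2 in KG-1a. HPRT1, which salvages hypoxanthine and guanine, gave −0.37 and −0.30 in MV4-11 and −0.51 and −0.47 in KG-1a. ADK, the kinase of adenosine, gave −0.37, −0.22, −0.32 and −0.56. PNP, the purine nucleoside phosphorylase, gave −0.32, −0.25, −0.69 and −0.50, and MTAP −0.21, −0.20, −0.16 and −0.58. Among 15 tested genes that interconvert purine nucleotides, 7 and 3 were lower with 8CA and 8AA in MV4-11 and 6 and 7 in KG-1a, while 1 and 1 were higher in MV4-11 and 2 and 3 in KG-1a. The 3 of 15 with 8AA in MV4-11 lie near the share of all genes. The mitochondrial adenylate kinase AK4 gave −3.21, −1.36, −0.60 and −0.86, and the nucleoside diphosphate kinases NME1 −0.52, −0.45, −0.88 and −1.03 and NME4 −0.45, −0.18, −0.51 and −0.42.

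The other nucleotide pathway, pyrimidine synthesis, had 3 of 6 genes lower with either drug in MV4-11 and 5 and 4 with 8CA and 8AA in KG-1a, and 1 higher with 8CA in MV4-11 and with each drug in KG-1a. CAD, which opens that pathway, gave −0.28, −0.14, −0.30 and −0.83, UMPS −0.23, −0.24, −0.13 and −0.32, and CTPS1 −0.34, −0.27, −0.50 and −0.73.

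The list of genes of formyl folate, the one-carbon donor for GART and ATIC, split by drug. Of 8 genes tested, 3 were lower and 4 higher with 8CA in each line, whereas with 8AA 7 were lower in each line and 1 higher in KG-1a. MTHFD1 (−0.37, −0.30, −0.41, −0.65) and SHMT1 (−0.34, −0.24, −0.34, −0.24) fell with both drugs. The mitochondrial genes MTHFD2 (1.11 ± 0.044 with 8CA, −0.48 ± 0.045 with 8AA), SHMT2 (1.31 ± 0.050 and −0.56 ± 0.052) and ALDH1L2 (2.57 ± 0.080 and −1.81 ± 0.12) rose with 8CA and fell with 8AA in KG-1a at 24 h, and were named after their values were seen. Their 8AA values come from the libraries that stood apart from each other.

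The last list held transcription factors known to act on purine genes, read here as transcripts and not as activity. ATF4 rose with 8CA by 0.59 ± 0.047 in MV4-11 and 1.12 ± 0.059 in KG-1a at 24 h and fell with 8AA, at −0.33 ± 0.048 and −0.72 ± 0.060. MYC rose with 8CA by 0.34 ± 0.044 in MV4-11 and 0.31 ± 0.059 in KG-1a, fell with 8AA in KG-1a at −0.64 ± 0.060, and was not called with 8AA in MV4-11 at 0.09 ± 0.045. MYCN was tested in KG-1a alone and rose with both drugs, by 1.51 ± 0.18 and 2.30 ± 0.16, and MAX, the partner of MYC, was not called, from −0.10 in MV4-11 with 8CA to −0.01 in KG-1a with 8CA. MITF was tested in MV4-11 alone, at −0.27 ± 0.55 with 8CA and −1.96 ± 0.74 with 8AA, neither called. The part of these factors in the members' changes was not tested.

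Across the 24 libraries, centred on the mean of each line, ATIC followed the mean of the other members most closely (Pearson's r = 0.96), with PAICS (0.954), ADSS (0.946), ADSL (0.94) and PFAS (0.936) next. IMPDH2 followed it least (r = 0.331), below GMPS (0.759). The libraries share drugs, times and scaling, so these values describe the pattern and were not tested. Of 6014 other genes, those most like the mean of the members were PES1 (r = 0.985), DKC1 (0.983), GATAD2A (0.983), SORD (0.98) and VDAC2 (0.98).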

How the data were processed

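The authors deposited raw counts, whole numbers of reads per gene and library, for 23354 genes. The submitters' processing notes name Trimmomatic, STAR 2.6.0, HTSeq 0.11.1, edgeR and the builds hg19 and hg38, with no role given. The coordinates of the table are not those of GRCh38, where 24 of 21956 genes matched by symbol had the same start and stop. Strand use in counting is not given in the sources used here. GENCODE release 29 names 7 pseudogenes for PAICS, 7 for IMPDH1, 2 for PPAT and 1 for GMPS, none of them in the table, so reads from these copies could have been counted on the parent gene or dropped. In that annotation genes on the opposite strand overlap GART, PFAS, PPAT, ADSL and IMPDH2, whose reads cannot be told apart if strand was not used. In the table's coordinates ATIC, IMPDH1 and GMPS overlap small microRNA genes.

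The 10 members, the lists and the rules were chosen with earlier results of these data known. The named genes are the members, list genes called in 1 direction in all 4 comparisons at 24 h, all genes of lists of 5 or fewer, and the 5 genes most like the mean of the members among genes whose log2 CPM (prior count 2) averaged 5 or more. A gene that this rule would name is not reported here. Members were matched by symbol. Genes were filtered with filterByExpr (minimum count 10), scaled by TMM, and tested by the quasi-likelihood test of edgeR 4.0.16 in R 4.3.3, in a fit of the 12 libraries of each line, with 12800 genes in MV4-11 and 12711 in KG-1a, or of all 24 for differences between lines (14055 genes). The paper's text names no differential expression tool for the RNA sequencing. P-values were adjusted by the Benjamini-Hochberg method over all genes tested, and calls needed an adjusted p below 0.05. Fold changes are given with standard errors, and 95% confidence intervals come from the same fit. CPM and RPKM were computed from the counts, RPKM with the length in the table. The scripts were tested on simulated data. Alternatives tried were scaling by upper quartile, by library size only or by the size factors of DESeq2, no filter, at least 10 counts in every library, all 24 libraries in 1 fit, the Wald test of DESeq2 1.42.0, a replicate block and leaving out each library. Each left-out fit pools the spread over the other groups.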

Additional observations from a re-analysis of the deposited data

Results flagged for a closer look

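A member stood out where its response differed between times or between lines by edgeR's test of the difference itself, adjusted over all genes. The values below are differences of log2 fold changes, and no cause was tested for any of them. Several of the calls were lost with a library left out or under an alternative, as given with each comparison above. The change with 8CA in MV4-11 was lower at 24 h than at 8 h for PFAS (−0.21), PAICS (−0.26) and IMPDH1 (−0.29). With 8AA in MV4-11 it was higher at 24 h for PFAS (0.23), so the 2 PFAS values had opposite signs. The 8AA call of PFAS was lost with any of the 8 libraries left out, and its 8CA call in 7 of 8 such fits. In KG-1a the 8CA change was lower at 24 h for PFAS (−0.37), PAICS (−0.44), ADSL (−0.30), ATIC (−0.26) and IMPDH1 (−0.40), and the 8AA change for GART (−0.34), PFAS (−0.60), PAICS (−0.50), ADSL (−0.43) and ATIC (−0.45).

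Between lines, as MV4-11 minus KG-1a, the 8CA change of PPAT was lower at 8 h (−0.30) and at 24 h (−0.29). The 8AA change at 8 h was higher in MV4-11 for ADSL (0.27) and IMPDH2 (0.30). These calls of PPAT, ADSL and IMPDH2 were each lost in some fit with a library left out. At 24 h the 8AA change was higher in MV4-11 for PPAT (0.34), GART (0.49), PFAS (0.65), PAICS (0.49), ADSL (0.69), ATIC (0.51), IMPDH1 (0.50), ADSS (0.39) and GMPS (0.26). The 8AA libraries of KG-1a at 24 h, which enter these last values, stood apart from each other. GMPS was 0.32 without library A and 0.12 without library B, and the other values are given above.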

How the results depend on the processing

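Of 3140 member values computed under alternatives, 2961 kept their side of the threshold, 118 of them with a change of sign while called in neither fit, 144 lost a call, 34 gained one and 1 reversed. The reversed one was ATIC in untreated MV4-11 against KG-1a at 24 h, −0.10 with library size only. Of 120 called values, 85 were called with any library left out. With a library left out, the members called ranged as follows. In MV4-11 with 8CA they were 1 to 3 at 8 h (4 in the full fit) and 5 to 8 at 24 h (9), and with 8AA 4 to 7 at 24 h (7). Between drugs they were 1 to 2 at 8 h and 1 to 2 at 24 h in MV4-11 (3 each) and 5 to 6 at 8 h in KG-1a (10). For the change over time they were 1 to 3 with 8CA (3) and 0 to 0 with 8AA (1) in MV4-11, and 3 to 5 with 8CA in KG-1a (5). Between lines they were 0 to 1 (1) and 0 to 2 (2) with 8CA and 8AA at 8 h and 0 to 1 (1) with 8CA at 24 h. The 8AA change over time in MV4-11 had 0 calls without a filter and 0 in the fit of all 24 libraries, the 8AA line difference at 8 h had 1 by DESeq2's Wald test, and the 8CA line difference at 24 h had 2 (PPAT and ATIC) with library size only. The causes were not tested.

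The labels do not say that the letters A and B pair the samples. Deviations from the group means correlated between −0.29 and 0.50 over the pairs of groups in KG-1a and between −0.36 and 0.59 in MV4-11, with every value below 0 in a pair that held the untreated libraries of 24 h, and between 0.41 and 0.59 among the MV4-11 groups of 8 h. Pairs across times reached 0.446 in MV4-11 (8AA at 8 h with 8AA at 24 h) and 0.498 in KG-1a (untreated at 8 h with 8AA at 24 h). These values are a hint from the data of a shared factor in both lines, which the main fits do not model. With a replicate block, 5 members were called between drugs in MV4-11 at 24 h (3 without it; PAICS and IMPDH2 were added), and in MV4-11 with 8CA at 8 h 6 (4 without it), where GART (adjusted p = 0.0224) and IMPDH2 (0.043) were added. ATIC between drugs in MV4-11 at 8 h, GMPS with 8AA in MV4-11 at 24 h and IMPDH1 in the 8AA change over time in KG-1a were also called with it, and the block ended no call of a member.

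Over all genes, 8CA in MV4-11 at 8 h called 1325, but 883 by DESeq2 and 576 to 774 with a library left out. 8CA in KG-1a at 8 h called 112, but 28 to 37 with a library left out, 272 without a filter, 205 with the replicate block and 184 in the fit of all 24 libraries. 8AA in MV4-11 at 24 h called 3726, but 2294 without untreated library B and 2293 without 8AA library A, and 8AA in KG-1a at 8 h called 4415, but 2841 without 8AA library B. Library size only and upper-quartile scaling moved the share of called genes that were lower from 55.8% to 38.3% and 41.6% for 8CA and 53.4% to 38.8% and 38.1% for 8AA in MV4-11 at 8 h, and from 52.4% to 36.2% and 40.1% for 8AA at 24 h. In KG-1a with 8AA at 24 h it moved from 51.2% to 35.5% and 38.8%, and in the 8AA line difference at 24 h from 38.2% to 54.0% and 51.9%. Library size only moved it to 41.1% (from 51.8%) for 8CA in MV4-11 at 24 h, 41.8% (from 51.9%) for 8AA in KG-1a at 8 h, 36.4% (from 51.6%) between drugs in KG-1a at 24 h and 44.1% (from 32.5%) for the 8AA line difference at 8 h. Upper-quartile scaling moved it to 41.0% (from 55.6%) between drugs in MV4-11 at 8 h and 41.9% (from 53.1%) for 8CA over time in KG-1a. Both moved it for 8AA over time in KG-1a (from 58.3% to 41.7% and 39.2%) and for untreated KG-1a (from 44.2% to 28.3% and 31.4%). Library size only also moved the median of untreated MV4-11 against KG-1a at 24 h to −0.11. With 2 libraries a group, small changes of the kind seen in MV4-11 sit near the threshold.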

Other observations

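The log2 ratio of GMPS to ADSS counts within a library, the genes that complete GMP and open the AMP branch, was 1.27 in both untreated MV4-11 libraries at 24 h, 1.44 to 1.45 with 8CA and 1.22 to 1.36 with 8AA. In KG-1a at 24 h it was 0.75 to 0.80 untreated, 0.94 to 0.99 with 8CA and 0.83 to 1.03 with 8AA. At 24 h the 8CA libraries lay above the untreated ones in both lines, and the 8AA libraries spanned the widest range. At 8 h the 8CA and untreated libraries overlapped, at 1.299 to 1.363 and 1.177 to 1.305 in MV4-11. In KG-1a at 8 h they held 0.6683 to 0.7307 and 0.585 to 0.7028. The 8AA libraries at 8 h held 1.321 to 1.356 in MV4-11 and 0.6896 to 0.7948 in KG-1a.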
